A study of Homo sapiens with 4 samples.

Results

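The cytosolic ribosome is built from ribosomal RNA and a fixed set of proteins, named RPS in the small subunit and RPL in the large subunit. Here 63 genes of this family were followed among the 19775 genes that a probe set of the array named alone. A gene was taken when its symbol starts with RPL or RPS and a digit, or is RPLP0, RPLP1, RPLP2 or RPSA, and when a probe set names it and no other gene. The S6 kinases and the pseudogenes were left out. The 63 genes comprised 52 proteins of the ribosome itself (20 of the small and 32 of the large subunit), 9 paralogs (second genes that resemble one of these) and 2 other transcripts that carry the name, RPL26L1-AS1 and RPL34-DT. The rule reached 52 of the 77 ribosomal proteins listed. The other 25, RPSA, RPS27A, RPL5 and RPLP0 among them, had no probe set naming them alone.

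Ribosomal protein mRNAs are among the most abundant in growing cells, and most of their proteins are needed in equal numbers in each ribosome. Most of these mRNAs begin with a terminal oligopyrimidine (TOP) tract, a C followed by a run of C and T, through which the amino acid sensing kinase complex mTORC1 controls their translation. Leucine enters many cancer cells through the transporter LAT1, which JPH203 inhibits.

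The study profiled 2 established human breast cancer cell lines, T-47D, which carries the estrogen receptor, and MDA-MB-231, which is triple negative. Each line was given 100 μM JPH203 for 24 h, or for the control the same concentration of Captisol, the vehicle. One Affymetrix array was hybridised per condition, 4 in all. With 1 array per condition the response within a line could not be tested, and no fit of treatment over both lines was run, so the ratios below describe single arrays and carry no error or p-value.

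The labelled lines matched their markers: ESR1 had a signal of 735.2 on the T-47D control array and 6.4 on the MDA-MB-231 control array, and VIM had 56.5 and 8155.8. SPARC, another mesenchymal marker, was below 100 on all 4 arrays. The arrays were scaled to a common mean, so fewer cells, less RNA per cell and a shift of all RNA cannot be told apart. The T-47D arrays also differed in their control probe sets, which with 1 array per condition cannot be told apart from treatment. The poly-A control RNAs gave a 1.56-fold higher signal with JPH203 than without in T-47D cells (1243.9 against 796.2) and a 0.927-fold signal in MDA-MB-231 cells. The ratio of 3′ to 5′ signal for ACTB, a measure of RNA integrity, was 1.39 without and 1.72 with JPH203 in T-47D cells, and 1.45 and 1.44 in MDA-MB-231 cells. For GAPDH it was 0.940 and 0.867 in T-47D cells and 0.987 and 1.01 in MDA-MB-231 cells. The part of either in the results was not tested.

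The transcription starts of 9 genes that the results name are shown because this feature marks the family; they were picked, and do not represent it. Each window holds 10 bases before and 15 bases from the RefSeq start (GRCh38.p14), read 5′ to 3′ on the transcribed strand, and capitals mark a TOP run that opens the transcript, defined as C followed by at least 4 bases that are each C or T.
RPS6, chr9:19380222-19380246, minus strand: gaagttggccCTCTTTTCCgtggcg
RPS27, chr1:153990752-153990776, plus strand: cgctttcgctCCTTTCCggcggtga
RPS27L, chr15:63157463-63157487, minus strand: gatgccgagcgcagatcgcttgcag
RPL22, chr1:6199581-6199605, minus strand: cgctcacctcCCTTTCTaactccgc
RPL22L1, chr3:170870181-170870205, minus strand: ccgtagcttcCTCTCTgctctcgcg
RPL31, chr2:101002279-101002303, plus strand: ccttcgcgctCTTCCTTTCCaactt
RPL34, chr4:108620566-108620590, plus strand: cttttttcttCCTCTTCCggggacg
RPL7L1, chr6:42879606-42879630, plus strand: gtgcggcgccgtagctaggagcgga
RPL26L1, chr5:172958719-172958743, plus strand: tccaggggtcggcgaacgaaacgcg

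The 5 ribosomal proteins shown and 1 paralog, RPL22L1, open with a TOP run, and RPS27L, RPL7L1 and RPL26L1 do not, while 13 of the tested ribosomal proteins with a start, RPL3, RPL6 and RPL27 among them, lack one. Over the family, 34 of the 54 genes with a RefSeq start opened with such a run (63.0%). The share was 4.04% over all 27305 RefSeq promoters and 14.6% over 164 other bright genes with a start. A match is a match of letters at the annotated start and no measure of the start used in these cells.

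Of the 63 genes, 55 reached a signal of 100 on every array, 49 ribosomal proteins and 6 paralogs, and these are the genes tested for a 2-fold change. The 8 others were RPL27A (82.0, 107.4, 109.4 and 54.3 on the T-47D control, T-47D JPH203, MDA-MB-231 control and MDA-MB-231 JPH203 arrays), RPL10L (62.7, 39.1, 33.6 and 69.6), RPLP2 (19.6, 21.7, 22.7 and 32.2), RPL3L, RPL36A, the 2 other transcripts and the Y-linked RPS4Y1, whose level is not given. For RPL27A, RPLP2 and RPL36A, proteins that every ribosome carries, the probe sets that name the gene alone were thus dim. The family was among the brightest on the array: a ribosomal protein probe set had the highest signal of all on 3 of the 4 arrays, RPL35A with 21864.6 in T-47D cells given JPH203 and RPS23 with 11327.3 and 10623.1 in MDA-MB-231 cells without and with it.

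In T-47D cells the ribosomal protein signals as deposited stood above control almost as a block, a direction that turned when the arrays were scaled to the poly-A control RNAs (9 of 55 above 1, median log2 ratio -0.10). That scaling divides every gene's ratio by the same 1.56 and leaves 9.23% of all genes above 1. As deposited, the median ratio of JPH203 to control was 1.46 over the 55 genes, and 54 of them were above 1, against 48.3% of the 6416 genes tested. At 1.5-fold, 16 of 55 (29.1%) were higher, against 11.6% of all genes and 26.4% of the bright genes outside the family; with the trend on brightness described below removed, 3 of 55 (5.45%) were, against 10.8% of all genes. The 49 ribosomal proteins proper all lay between 1.31 and 1.94, with a median of 1.45 and a standard deviation over genes of 0.11 on the log2 scale. None of them reached 2-fold.

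The 20 small subunit proteins were the most uniform, from 1.34 (RPS3) to 1.54 (RPS12), with a median of 1.45 and a standard deviation of 0.05 (log2). RPS6, the substrate of the S6 kinases downstream of mTORC1, had signals of 11071.8 without and 16754.2 with JPH203, a ratio of 1.51. RPS19, the gene most often mutated in the inherited anaemia Diamond-Blackfan, went from 13045.6 to 18892.9, a ratio of 1.45. Neither stood apart from its subunit, and the 13 tested genes linked to that anaemia had a median ratio of 1.45, that of the whole group.

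The 29 large subunit proteins had a median of 1.47 and a wider spread (0.13). RPL31 was the highest, with 8953.9 on the control and 17396.6 on the JPH203 array, a ratio of 1.94. The next were RPL34 (7543.2 and 13770.0, ratio 1.83), RPL36 (6961.9 and 12336.4, ratio 1.77) and RPL12 (10041.9 and 16504.4, ratio 1.64), which were named after their values were seen. At the lower end stood RPL41, which encodes the smallest ribosomal protein (11530.2 and 15072.8, ratio 1.31), and RPL11, which binds MDM2 when ribosome assembly fails (7863.9 and 10319.2, ratio 1.31). RPLP1, the 1 stalk protein measured, recruits translation factors and had 12502.8 and 17966.6, a ratio of 1.44.

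**Figure D1:**
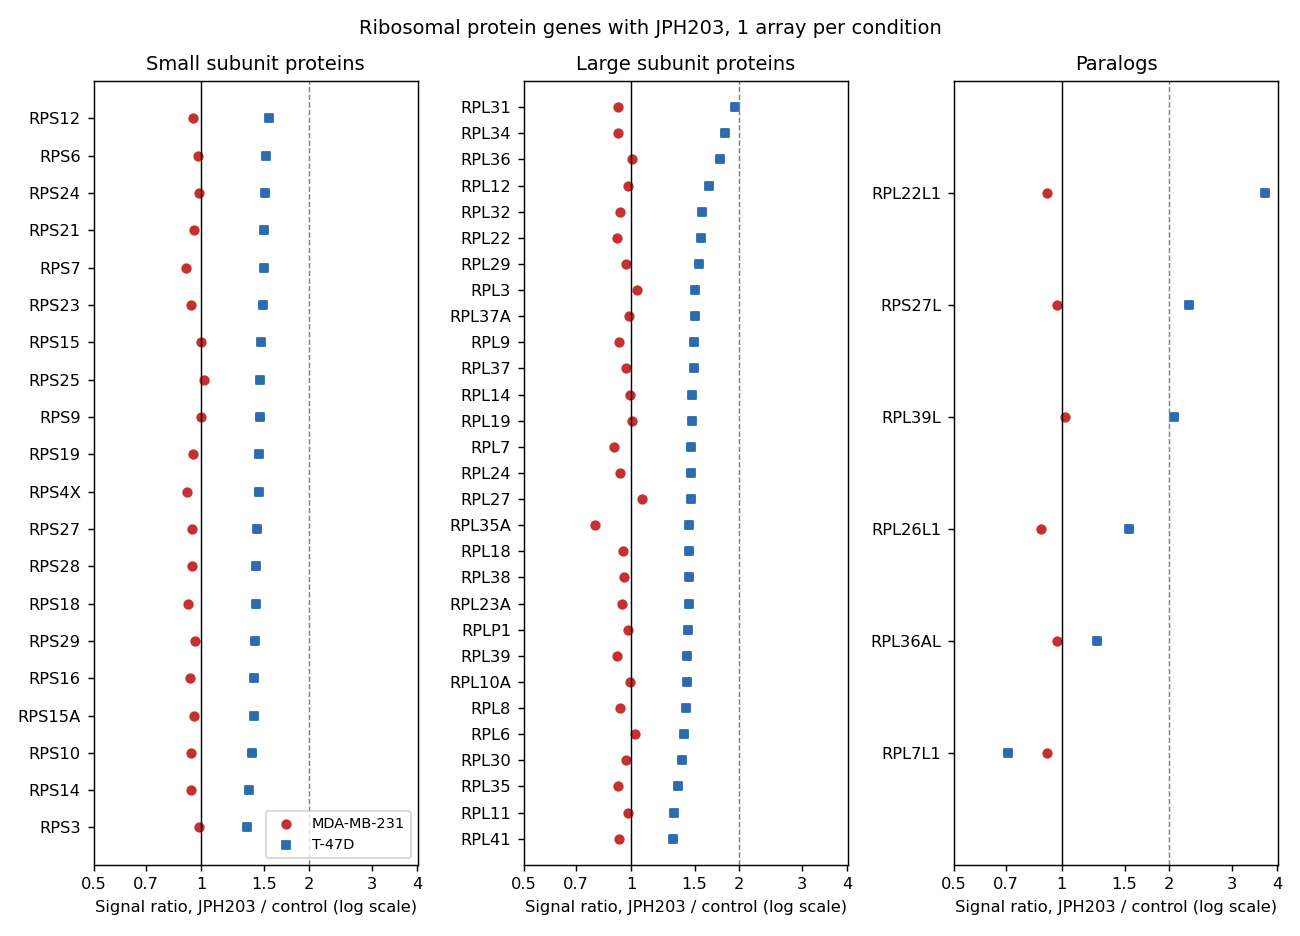
Signal ratio of JPH203 to control (log axis) for each ribosomal protein gene tested, as deposited, by subunit and for paralogs; blue squares are T-47D cells and red circles MDA-MB-231 cells, 1 array per condition, and the dashed line marks 2-fold. In T-47D cells the 49 ribosomal proteins lie between 1.31 and 1.94, while the paralogs range from 0.707 to 3.71.

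The paralogs were more spread. In T-47D cells 3 of the 55 genes were called 2-fold higher, against 2.23% of all genes tested, and all 3 were paralogs. RPL22L1 kept this call under each of 9 other scalings, pseudocounts and probe set choices, RPL39L under 7 and RPS27L under 2. RPL22L1 and RPL39L have 1 probe set each, so the probe set choices repeat their main values. Several of the 9 differ only in how the trend was fitted. RPL22L1, paralog of the RNA-binding protein RPL22, had 860.4 on the control and 3189.2 on the JPH203 array, a ratio of 3.71. RPS27L, a p53 target related to RPS27, had 2358.0 and 5343.7, a ratio of 2.27. RPL39L, a paralog known from male germ cells, had 480.5 and 987.6, a ratio of 2.06.

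Their relatives in the ribosome stayed with the group. RPL22 had a ratio of 1.56 (6422.2 and 10036.4), RPS27 of 1.43 (12148.8 and 17407.2) and RPL39 of 1.43 (11852.1 and 16925.3). No gene of the family was called 2-fold lower, against 2.42% of all genes. RPL7L1, a relative of RPL7 that acts in ribosome assembly, was the 1 tested gene below control, with 1213.3 and 857.7, a ratio of 0.707. RPL7 itself had 12294.2 and 18055.4, a ratio of 1.47. RPL26L1 (1395.6 and 2151.8, ratio 1.54) and RPL36AL (5653.0 and 7107.5, ratio 1.26) lay near the ribosomal proteins.

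**Figure D2:**
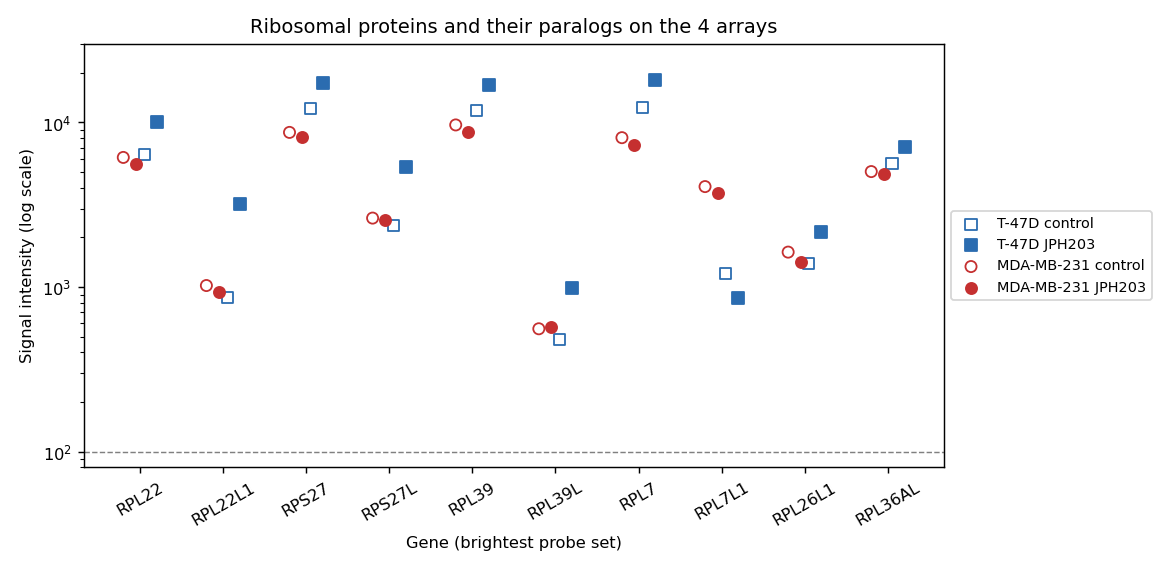
Signal intensity (log axis) of the brightest probe set of 4 ribosomal proteins, their paralogs, RPL26L1 and RPL36AL on each of the 4 arrays; open symbols are control and filled symbols JPH203, and a dashed line marks a signal of 100, below which genes were not tested. RPL22L1, RPS27L and RPL39L have similar signals on 3 arrays and a higher one with JPH203 in T-47D cells; signals of different genes are not comparable.

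The T-47D ratio depended on brightness across the whole array. A lowess trend of the log2 ratio on signal was fitted without the 124 probe sets that name a family gene alone. It is called below the trend fitted without the family. Of the 68 probe sets that name a ribosomal protein gene with other genes, 53 reached 100 on both T-47D arrays and stayed in the fit. This trend was 0.971 at a signal of 100, 0.933 at 300, 1.03 at 1000 and 1.37 at 10000. Among 201 genes outside the family with a mean signal of at least 5000, 180 were above control and the median ratio was 1.35. After the trend over all probe sets was removed, the median of the 55 genes was 1.02, with 34 above 1 and 21 below, against 50.1% above 1 of all genes. With the trend fitted without the family it was 1.03, with 38 above 1. Most of the distance of the ribosomal proteins from 1 thus lay in the trend that they shared with other bright genes. The part in that trend of the probe sets that name a ribosomal protein gene with other genes was not tested.

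A few genes kept a distance from the trend. RPL22L1 had a ratio of 3.39 after removal and RPL39L of 2.08, and these 2 were called higher, against 2.63% of all genes. RPS27L came to 1.88 and was no longer called. None of the 55 was called lower, against 1.81%, and RPL7L1 was at 0.685. Among the ribosomal proteins proper RPL31 was at 1.36, RPL34 at 1.32 and RPL36 at 1.29, and the 49 had a median of 1.02 and a lowest value of 0.912 (RPL41).

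**Figure D3:**
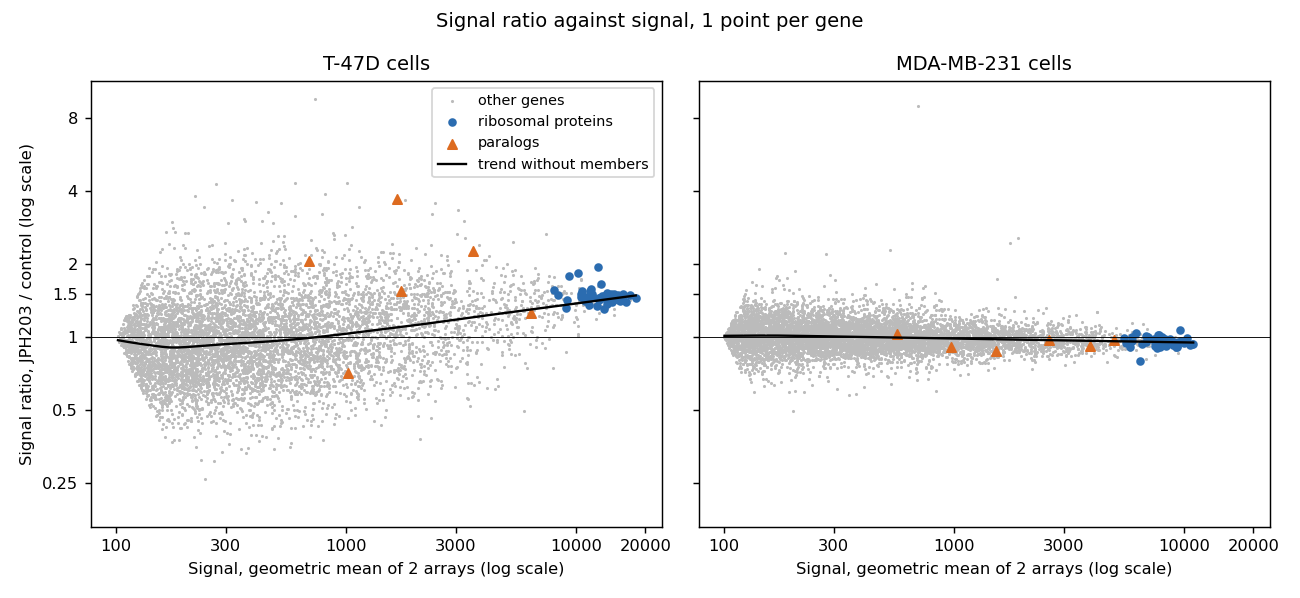
Signal ratio of JPH203 to control against the geometric mean signal of the 2 arrays (both log axes) for each gene tested, T-47D left and MDA-MB-231 right; grey points are other genes, blue points ribosomal proteins, orange triangles paralogs, and the black line is the lowess trend fitted without the family. In T-47D cells the trend climbs to 1.37 at a signal of 10000, where the ribosomal proteins lie, and in MDA-MB-231 cells it is 0.949 there.

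Dim and bright probe sets of one gene mostly gave the same picture. In T-47D cells 23 genes of the family had several probe sets above the minimum, and 9 had both a dim one and one of at least 5000. The dim probe sets had the lower ratio in 7 of these 9 genes, with a median difference of -0.26 (log2). RPL22 had 1.09 and 1.04 from its 2 dim probe sets and 1.56, 1.59 and 1.65 from its 3 bright ones. RPL37A had 1.00 against 1.51, RPS28 0.948 against 1.42, and RPL38 0.969 and 1.25 against 1.45. Some of these dim signals lay near the minimum of 100. The dim probe set read 121.5 on both T-47D arrays for RPL37A, and 128.1 and 121.4 for RPS28. The dimmest of RPL38 read 224.8 and 217.8. The part of background in these ratios was not tested. RPL31 went the other way at 1 probe set, with 1.71 and 2.28 from dim probe sets and 1.94 from the bright one, so all 3 were above the group's median. RPS21 also went the other way, with 1.54 from its dim probe set and 1.49 from the bright one.

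For RPS27L the 3 probe sets read 2.27, 1.76 and 0.896, and the bright one alone passed 2-fold. RPL22L1 and RPL39L each rested on 1 probe set. In the 15 genes with several bright probe sets these lay close together, with a median range of 0.08 (log2) and at most a 1.18-fold difference (RPL10A). In most of these genes the brightest probe set did not have the highest ratio. RPL10A had 1.43 from its brightest against 1.68, and RPS16 had 1.41 against 1.54 and 1.61. In others it did, as in RPL14 (1.48 against 1.34) and RPS7 (1.49 against 1.40). In MDA-MB-231 cells the dim probe sets were lower in 1 of 6 genes.

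**Figure D4:**
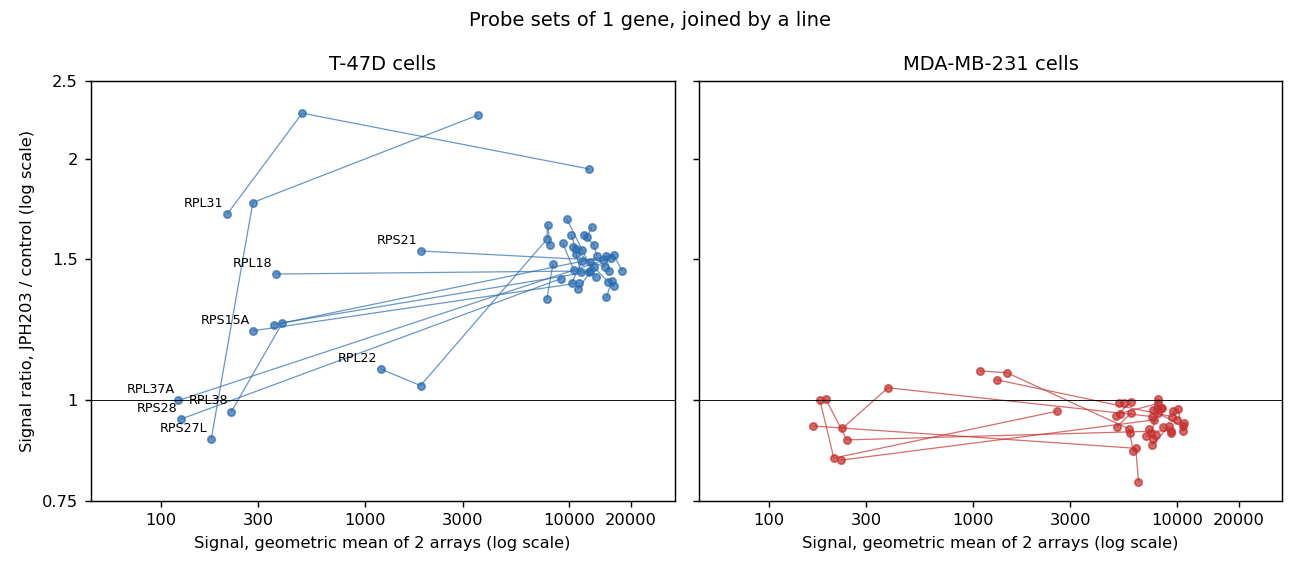
Signal ratio of JPH203 to control against signal (log axes) for probe sets of ribosomal protein genes with several probe sets of at least 100 on both arrays; a line joins the probe sets of 1 gene, and in the T-47D panel names mark the genes with a dim probe set but RPL35A. In T-47D cells most lines run upward from the dim to the bright probe sets, in 7 of 9 genes, and in MDA-MB-231 cells the ratios lie near 1.

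In MDA-MB-231 cells no gene of the family was called in either direction, against 0.0885% of the 6777 genes tested called higher and 0.0148% called lower. The median ratio was 0.946, and 7 of 55 genes were above 1, against 48.3% of all genes; scaled to the poly-A control RNAs, which moves every gene alike, 40 of 55 were above 1 (median log2 ratio 0.03), against 73.9% of all genes. The lowest ratio was that of RPL35A (7259.3 on the control and 5753.9 on the JPH203 array, ratio 0.793), a large subunit protein, followed by RPL26L1 (1629.6 and 1425.2, ratio 0.875). RPL7 (8084.7 and 7247.0, ratio 0.896) and RPS7 (8234.3 and 7451.6, ratio 0.905) came next. The highest was RPL27 (9265.4 and 9909.2, ratio 1.07), followed by RPL3 (6065.0 and 6298.8, ratio 1.04), whose protein lies near the peptidyl transferase centre. RPL6 (7725.2 and 7879.6) stood at 1.02. The spread between genes was 0.07 (log2), so the values lay within a narrow band below control.

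The genes that led in T-47D cells were near the band in MDA-MB-231 cells. RPL22L1 had 1020.8 and 929.8, a ratio of 0.911. RPS27L had 2623.3 and 2544.2, a ratio of 0.970, and RPL39L had 557.3 and 571.0, a ratio of 1.02. Here too brightness ran with the ratio: 87 bright genes outside the family had a median of 0.961, and once the trend was removed the family's median was 0.997, with 26 above 1, against 50.6% of all genes.

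Side by side and as deposited, 47 of the 55 genes were above control in T-47D cells and below it in MDA-MB-231 cells, against 28.1% of the 5265 genes tested in both lines and 48 of 64 genes outside the family that were bright in both (75.0%). With the trends removed it was 15 of 55 (27.3%), against 26.4% of all genes. The ratios in the 2 lines had a Pearson correlation of 0.03 over the 55 genes, each line sharing its 2 arrays among all points. The difference between the lines was not tested, as each ratio rests on a single pair of arrays.

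Without JPH203 most ribosomal proteins gave lower signals as deposited in MDA-MB-231 than in T-47D cells. The median ratio of MDA-MB-231 to T-47D on the control arrays was 0.801, and 8 of 55 genes were above 1, against 50.9% of the 5688 genes tested. Scaling to the poly-A control RNAs, which moves every gene alike, put this ratio above 1 for all 55, against 94.6% of all genes. The calls that follow are as deposited. RPL35A was called lower (7259.3 against 15074.5, ratio 0.482), against 16.1% of all genes called lower, and its other probe sets above 100 read 0.502 and 0.536. RPL7L1 was called higher (4076.9 against 1213.3, ratio 3.36), against 16.3% of all genes called higher. Both shares in the family were below those of the array.

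This shift also ran with brightness. The 96 bright genes outside the family had a median of 0.817 on the control arrays, and after removal of the trend fitted without the family its median was 1.05. RPL7L1 was then still more than 2-fold higher (3.70), and RPL35A was no longer called (0.633). The poly-A control RNAs were 3.25-fold brighter on the T-47D than on the MDA-MB-231 control array, and their part in this ratio was not tested.

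Other genes of the pathway were read from lists. Of 18 other mRNAs known to carry a TOP tract, 14 were tested in T-47D cells. None was called, against 2.23% of all genes called higher and 2.42% called lower. Their median ratio was 1.37 and 12 were above 1, and with the trend removed the median was 1.05 and 10 were above 1. FAU, which encodes RPS30 as a fusion protein, had 10818.1 and 16385.3, a ratio of 1.51. EIF3E (3932.1 and 7431.9, ratio 1.89) and EIF3H (3674.1 and 6549.5, ratio 1.78), subunits of initiation factor eIF3, were the highest, at 1.48 and 1.42 after removal of the trend. RACK1, a scaffold protein of the small subunit, had no probe set naming it alone. In MDA-MB-231 cells the same 14 had a median of 0.939 and none was called, against 0.0885% of all genes called higher and 0.0148% called lower.

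Among the tested regulators of TOP translation, 1 of 5 was called in T-47D cells, against 2.23% of all genes called higher and 2.42% called lower. EIF4EBP1, the repressor of eIF4E, had 716.4 and 1479.1, a ratio of 2.06, which fell just short of 2-fold once the trend was removed. LARP1, which binds the TOP tract, had 1867.9 and 1030.0, a ratio of 0.551, and EIF4EBP2 had 217.0 and 124.6, a ratio of 0.574. In MDA-MB-231 cells these read 1.46, 0.939 and 0.859. None of the 4 chaperones of ribosomal proteins tested in T-47D cells was called, against the same shares of all genes, and their median ratio was 1.03.

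Within the family the TOP start did not separate the ratios. The 30 ribosomal proteins proper with such a start had a median of 1.46 in T-47D cells and the 13 without one 1.47. RPL22L1 has a start of this kind, and RPS27L, called as deposited, and RPL7L1, the 1 gene below control, have none. In MDA-MB-231 cells the medians were 0.945 and 0.978. The genes are also short, with a median genomic length of 5.13 kb; over all the genes tested in T-47D cells it was 26.97 kb, and over the other bright genes 8.11 kb.

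Other assemblies of many subunits gave a different order after the trend was removed. In T-47D cells 75 mitochondrial ribosomal protein genes had a median ratio of 1.36 as deposited and 1.27 with the trend fitted without the cytosolic family removed, and 33 proteasome subunit genes had 1.22 and 1.02. The cytosolic ribosomal proteins proper had 1.45 and 1.03 on the same scales. Their spread was the narrowest of the 3, with standard deviations of 0.11, 0.35 (mitochondrial) and 0.36 (proteasome) on the log2 scale as deposited. Over all 55 tested genes of the family, paralogs among them, it was 0.275. These are descriptions of genes on 2 arrays, and the differences between the sets were not tested.

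**Figure D5:**
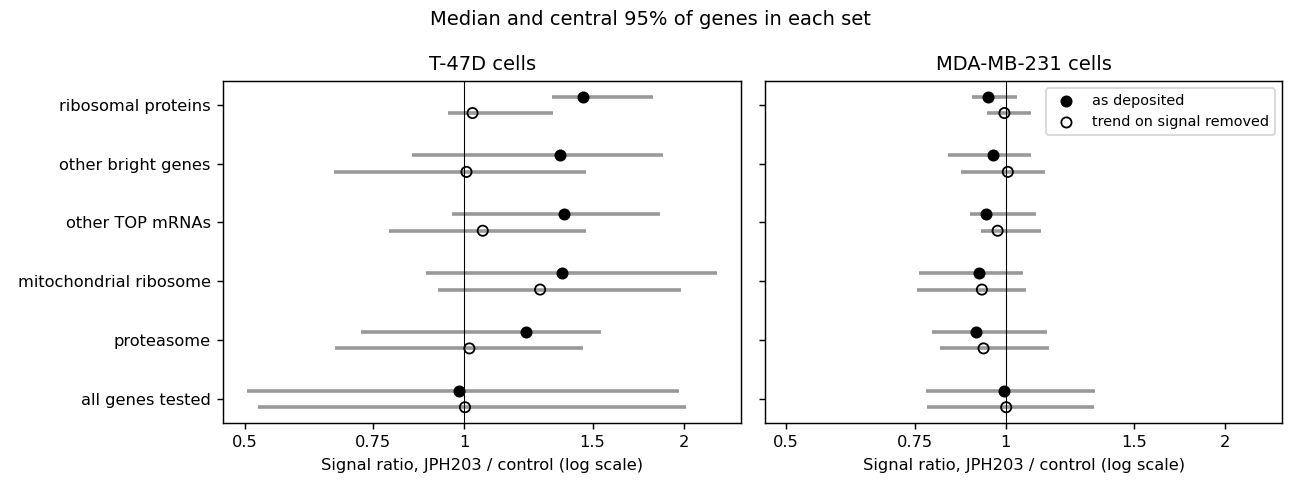
Median signal ratio of JPH203 to control (log axis) in 6 sets of genes, T-47D left and MDA-MB-231 right. Filled circles are ratios as deposited. Open circles are ratios after removal of the trend fitted without the probe sets that name a family gene alone. Grey bars span the central 95% of genes, not an error. In T-47D cells the ribosomal proteins move from 1.45 to 1.03 when the trend is removed and the mitochondrial ribosomal proteins from 1.36 to 1.27.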

How the data were processed

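Total RNA of 4 samples was hybridised to Affymetrix U133 Plus 2.0 arrays. The authors deposited 1 signal intensity per probe set and array, with 54675 probe sets, scaled so that the trimmed mean of each array is 100. The submitters' processing notes name GCOS, whose version is not given in the sources used here. The precision is limited by the number of arrays, 1 per condition.

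Probe sets were named from the platform annotation: 41097 name 1 gene, 1801 several and 11777 were not listed. Each gene was read from its brightest probe set over the 4 arrays. Of the 55 such probe sets tested, 42 are of the _x_at or _s_at kind, which can share sequence with other genes, so members with near-identical copies are uncertain. A gene was tested where both arrays reached 100. It was called higher from a ratio of 2 and lower from 0.5 downwards, and no p-value was computed. The trend was a lowess fit (span 0.4) of the log2 ratio on mean log2 signal over probe sets of at least 100. The procedure was run on simulated data with a trend common to all probe sets and a rise in randomly chosen ones. No rise of the family as a block was simulated, so these runs cannot show whether removing the trend would keep one. RefSeq starts came from GRCh38.p14; 8 members had no start in the table, and the Y-linked member was left out. Alternatives were other scalings, a pseudocount of 16, other minimum signals, folds and probe sets, and the ribosomal proteins alone.

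The members and lists were chosen with earlier results of these data known. Named genes were the called members, the 4 largest ratios each way per line, the paralogs with their relatives, RPLP1, RPS6, RPL11, RPS19, and in the other lists FAU and the 3 largest changes. Python 3.11.15, pandas 2.3.3 and statsmodels 0.14.6 were used.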

Additional observations from a re-analysis of the deposited data

Results flagged for a closer look

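As deposited, the ratios differed in direction between the cell lines. The median log2 ratio of the ribosomal protein genes was 0.63 higher in T-47D than in MDA-MB-231 cells (0.55 and -0.08), and 47 of 55 genes were above control in the first line and below it in the second, against 28.1% of all genes tested in both. With the trend of the ratio on signal removed the medians were 0.029 and -0.0049 and the count was 15 of 55, against 26.4% of all genes. Scaled to the poly-A control RNAs the medians were -0.10 and 0.030. The log2 ratio was 2.02 higher in T-47D cells for RPL22L1 and 1.22 higher for RPS27L, each above control in T-47D and below it in MDA-MB-231 cells. These differences were not tested, since each condition has 1 array.

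Probe sets left out of the comparisons were read as deposited, with no trend removed. Of 68 probe sets that name a ribosomal protein gene together with other genes, 53 were at least 100 on both T-47D arrays. Their median ratio of JPH203 to control was 1.46, with 52 above 1, against 48.3% of all genes. The bright genes outside the family had a median of 1.35, with 180 of 201 above 1. In MDA-MB-231 cells 54 reached 100 on both arrays, with a median of 0.950 and 8 above 1, against 48.3% of all genes. The bright genes outside the family had 0.961, with 17 of 87 above 1. Whether the shared probe sets differ from other bright genes was not tested.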

How the results depend on the processing

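Of the values recomputed for the main results, 67 stayed within the limits set (a count within 1.5 times, a median within 0.1 log2), 28 moved further and 7 changed sign; except where a value or the setting's own construction shows it, the cause was not tested. After quantile normalization, 1 gene was called in T-47D cells and 1 between the control arrays, 25 genes were above 1 in MDA-MB-231 cells, and the median log2 ratio was 0.040 in T-47D cells and 0.036 between the control arrays. With the trend over all probe sets removed, 34 genes were above 1 in T-47D and 26 in MDA-MB-231 cells, 1 was called between the controls, and the medians were 0.029 (T-47D) and 0.061 (controls). With the trend fitted without the family, 26 were above 1 in MDA-MB-231 cells, 1 was called between the controls, and the medians were 0.043 and 0.068. A span of 0.1, chosen after seeing the data, gave 26, 1, 0.041 and 0.033. Scaling to the poly-A control RNAs, whose amounts per array are not stated, moves every gene of a comparison by the same factor. It gave 9 genes above 1 in T-47D and 40 in MDA-MB-231 cells, and 54 called between the controls. The median log2 ratios were -0.10, 0.030 and 1.38. RPL35A turned to a log2 ratio of 0.65 between the controls, 1.57-fold higher in MDA-MB-231 cells. At a minimum signal of 50, 1 gene was called in MDA-MB-231 cells. At 1.5-fold 16 of 55 were called in T-47D cells, all higher. Of all 6416 genes tested there, 744 were higher and 875 lower. Between the controls 4 of 55 were called at 1.5-fold, 1 higher and 3 lower. Of all 5688 genes tested there, 1618 were higher and 1537 lower. At 3-fold 1 was called in T-47D cells and 1 between the controls. The mean of all probe sets gave 5 called in T-47D cells and 13 above 1 in MDA-MB-231 cells. Of all 5688 genes tested between the controls, 835 were 2-fold higher and 952 lower with the trend over all probe sets removed. Shares of all genes were not computed for the calls at 3-fold, with poly-A scaling or with the mean of all probe sets. Nor were they computed after quantile normalization, at a minimum signal of 50, or with probe sets that are neither _x_at nor _s_at. Probe sets that are neither _x_at nor _s_at left 21 genes in T-47D cells, 20 of them above 1, and 0 called between the controls. With the ribosomal proteins alone 0 were called in T-47D cells and 1 between the controls.

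RPL22L1 was called in T-47D cells under all 9 other scalings, pseudocounts and probe set choices, with a ratio from 2.37 to 3.83. For RPL22L1 and RPL39L, with 1 probe set each, the probe set choices repeat the main value and are no separate check. RPL39L was called under 7 of 9, losing the call after quantile normalization and poly-A scaling. RPS27L was called under 2 of 9, with a ratio from 1.45 to 2.34. Between the controls RPL7L1 was called under all 8 that give it a value and RPL35A under 2 of 9. RPL7L1 also has 1 probe set, so the mean of all probe sets repeats its main value. No paired analysis was possible because each condition has 1 array.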
